A study of Sus scrofa with 4 samples.

Results

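The complement, coagulation and acute phase genes of the pig ovary were followed in sows that overexpress leptin and in wild type (WT) sows. The gene list held 45 names, and a gene was taken where the symbol in the deposited expression table was one of them. This rule found 37 of the 22309 genes in the table. A further 7 (CFB, CFI, CD55, CD46, CD59, HP and ORM1) had no symbol in the table and were matched by gene identifier or description, which makes 44 genes in all. No row was matched to SAA3. The 44 were chosen with earlier results of these data known, so counts over them are descriptions.

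Poly(A)-enriched RNA was sequenced from 4 ovary samples of Sus scrofa in diestrus, 2 labelled Leptin overexpression and 2 labelled WT. Per the series' design text, the overexpressing sows were second-generation animals that descended from re-cloned offspring of a single leptin-overexpressing pig, crossed to Duroc/Landrace/Yorkshire sows, and were picked by PCR, qPCR and immunoblotting. All of them thus carry a transgene of 1 origin. The promoter that drives it, the age of the sows and the breeding of the WT sows are not given in the sources used here. Whether the libraries of a genotype stem from different sows is not stated, so the p-values here rest on a spread between libraries that may be technical.

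Complement is a blood-borne defence cascade. The C1 complex or the lectin proteases cleave C4 and C2, an amplification loop of C3, factor B and factor D deposits C3 on surfaces, and C5 to C9 form a pore, while regulators such as CD55, CD46, CD59, factor I and C1 inhibitor hold the cascade back on the body's own cells. Coagulation starts when tissue factor (F3) meets plasma factors and ends with fibrin, and is limited by tissue factor pathway inhibitor and the protein C system. Acute phase proteins are plasma proteins made chiefly by the liver under interleukin-6 signals. In the ovary, ovulation and luteal regression involve vessel leakage, fibrin turnover and leukocyte entry, and many of these genes are transcribed locally.

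Total counts were 16563376 and 16564990 in leptin overexpression replicates 1 and 2, and 16493113 and 16797511 in WT replicates 1 and 2. All values below follow that order of replicates. CPM are counts scaled to library size with TMM factors of 0.925 and 0.809 in leptin overexpression and 1.34 and 0.998 in WT. LEP itself had 55 and 124 counts in leptin overexpression and 0 and 3 in WT, or 3.59 and 9.26 CPM against 0 and 0.179 CPM. Its log2 fold change was 6.18 (edgeR adjusted p = 0.198, DESeq2 adjusted p = 3.76e-05). The edgeR fit used below thus did not call LEP itself at its threshold of 0.05. A count of 0 allows up to 0.136 CPM in WT replicate 1. WT replicate 2 was as close to leptin overexpression replicate 1 (Pearson's r = 0.941, computed over genes, which are no replicates of each other) as the leptin overexpression libraries were to each other (r = 0.936), and closer than to WT replicate 1 (r = 0.917). The luteal marker genes, summed, were at 34764 and 40163 CPM in leptin overexpression and at 17256 and 37515 CPM in WT, so the ovarian identity of the samples shows in all 4 libraries.

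Most of the 44 genes were expressed in the ovary, over a very wide range. FPKM, which corrects for transcript length and so allows levels to be compared between genes, averaged at least 100 over the 4 libraries for 7 genes, 1 to 100 for 23 and under 1 for 14. The highest was CLU (ENSSSCG00000009668), clusterin, a chaperone that also blocks the terminal complement complex, at 1056 and 404 FPKM in leptin overexpression and 960 and 678 FPKM in WT. It was followed in mean FPKM by TFPI2, CD59, A2M, SERPING1, F3 and C3. Levels of these 7 were thus those of an inhibitor of complement, a Kunitz-type protease inhibitor, a membrane regulator, a broad protease inhibitor, C1 inhibitor, tissue factor and the central complement component. FGA and FGG, which encode the alpha and gamma chains of fibrinogen, had 0 counts in every library, which allows up to 0.196 and 0.224 CPM in leptin overexpression and 0.136 and 0.179 CPM in WT.

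**Figure D1:**
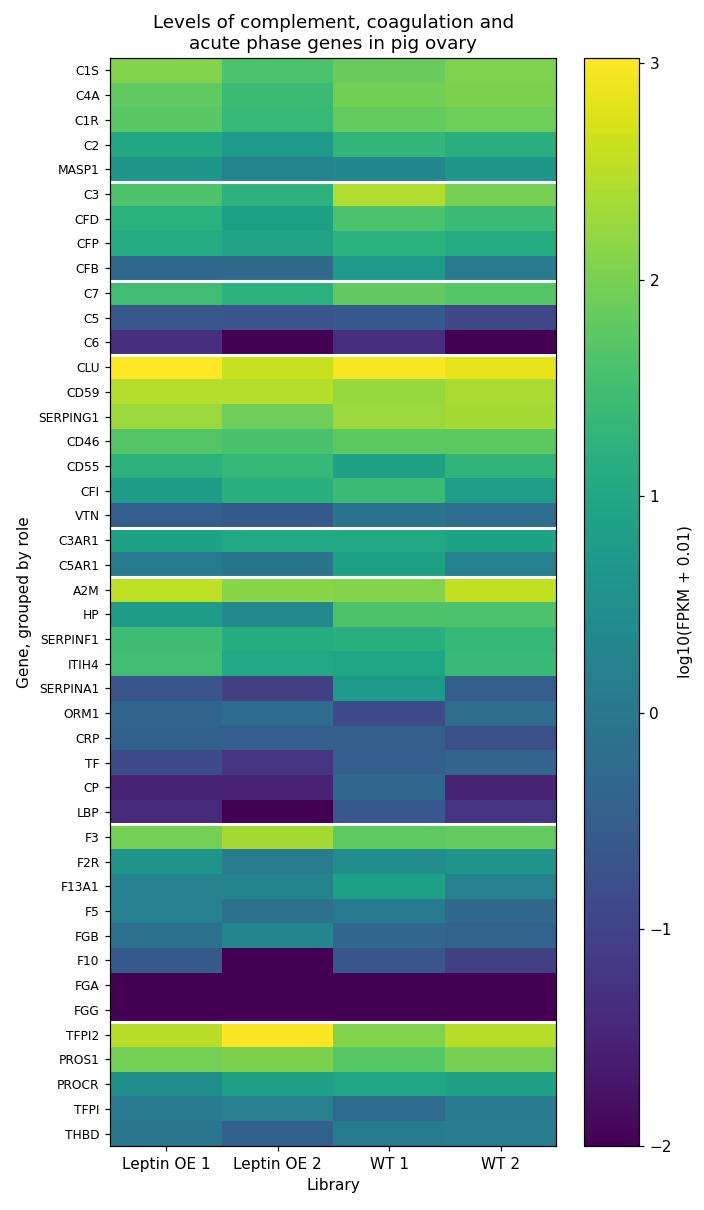
Levels of the 44 genes (rows, grouped by role and ordered by mean level) in the leptin overexpression and WT libraries (columns), as log10(FPKM + 0.01). CLU, TFPI2, CD59 and A2M are the brightest rows, FGA and FGG are at 0 in all libraries, and C3, CFB and HP are darker in both leptin overexpression columns than in both WT columns.

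The comparison of the genotypes asks which of these transcripts differ in ovaries of sows with leptin overexpression. C3, CFB and CFD of the C3 amplification step and haptoglobin had lower values in leptin overexpression, tissue factor and the inhibitor TFPI2 had higher values, and most other genes differed more between libraries of a genotype than between genotypes. Of the 44 genes, 36 had enough counts to be tested, and 0 passed the threshold of 0.05 on edgeR's adjusted p, against 0.0287% of all 13937 tested genes. At an unadjusted edgeR p under 0.05 there were 7 of 36 (19.4%), against 9.36% of all tested genes. Of these, 5 had lower values in leptin overexpression (C3, CFB, CFD, C5AR1 and HP), a direction that held 5.32% of all tested genes, and 2 had higher values (F3 and TFPI2), against 4.04%. Among the 37 genes found by symbol, 30 were tested and 5 had an unadjusted p under 0.05.

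DESeq2, another test for counts, called 4 of the 39 members to which it gave an adjusted p (HP, C3 and CFB lower, F3 higher), against 2.18% of all genes it adjusted, with 1.47% lower and 0.709% higher. A limma-trend test on log2(FPKM + 1) called 4 of 36 (HP, C3 and CFD lower, TFPI2 higher), against 3.33% of all tested genes. Over all 13937 tested genes its calls leaned downward, with 374 lower and 90 higher. The limma-voom test called 0, against 0.00718%. HP and C3 were on the lists of both tests that made calls, which rest on the same 4 libraries.

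Across the 36 tested members, 18 had higher and 18 lower values in leptin overexpression on the TMM scale, against 49.3% higher and 50.7% lower over all tested genes, with a median log2 fold change of -0.030 beside -0.012 over all tested genes. On the FPKM scale, which holds no TMM factor, 13 had higher and 23 lower values, and the median was -0.38 beside -0.30 over all genes. The members whose sign differed between the scales were C1S, MASP1, C3AR1, CD46 and CLU. The groups did not overlap in CPM for 20 of 36 (55.6%), against 45.1% of all tested genes. Of these, 10 were higher, against 22.2%, and 10 lower, against 22.9% of all tested genes. The difference between group means was larger than the difference within either group for 11 of 36, against 26.3% of all tested genes. At least a 2-fold difference together with groups that did not overlap was found for 9 of 36 (25.0%), against 14.7% of all tested genes. Of these, 6 were lower, against 9.03%, and 3 higher, against 5.65% of all tested genes.

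**Figure D2:**
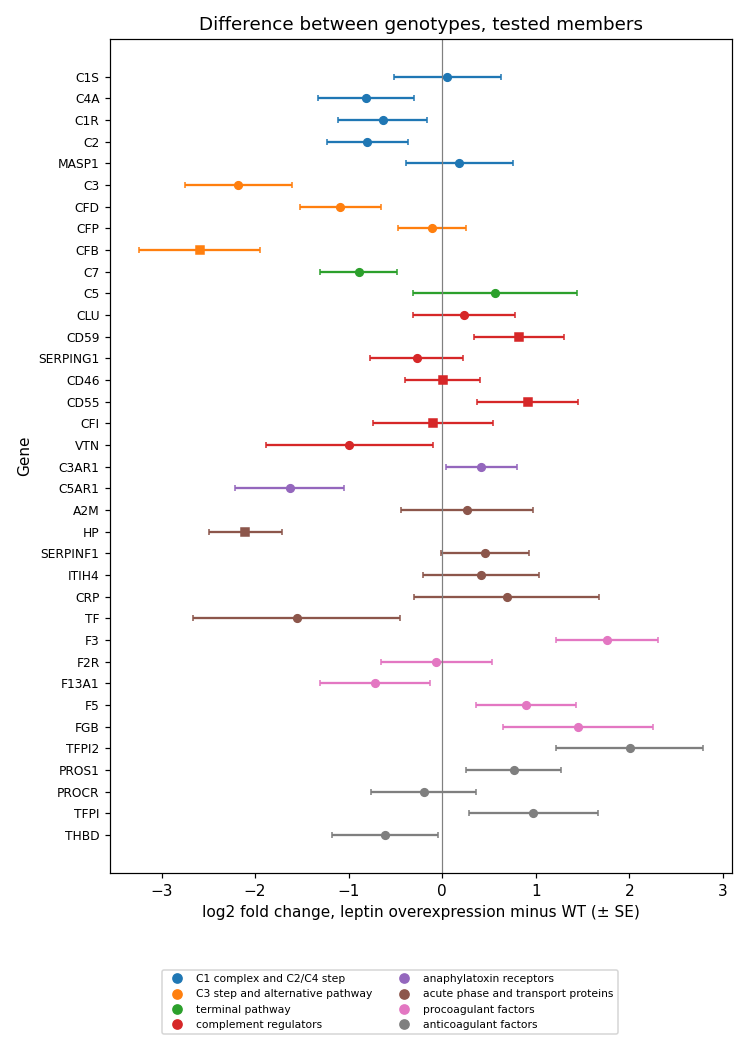
Log2 fold change, leptin overexpression minus WT, with its standard error, for the 36 tested members in order of role (colours); squares mark the genes matched by identifier or description. C3, CFB, CFD, C7, C5AR1 and HP lie left of 0 and F3 and TFPI2 right of it by more than 2 standard errors.

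In the first step of the classical and lectin routes 0 of 5 members had an unadjusted p under 0.05. C1S and C1R (both rows of assembled genes), the proteases of the C1 complex, are neighbours in the RefSeq annotation (Sscrofa11.1). C1S was at 356 and 136 CPM in leptin overexpression and 152 and 321 CPM in WT, so the groups overlapped fully (log2 fold change 0.053, SE 0.57, edgeR adjusted p = 0.98). C1R was at 145 and 70.0 CPM in leptin overexpression and 128 and 207 CPM in WT, again with overlap. C4A (ENSSSCG00000001427), the target of the C1 complex, was at 366 and 177 CPM in leptin overexpression and 371 and 585 CPM in WT, and its log2 fold change was -0.82 (SE 0.51, edgeR adjusted p = 0.607). Its groups did not overlap, but leptin overexpression replicate 1 and WT replicate 1 were almost equal. C2, which pairs with C4 to cleave C3, was at 29.6 and 14.5 CPM in leptin overexpression and 41.1 and 35.6 CPM in WT (log2 fold change -0.80, SE 0.44, edgeR adjusted p = 0.582). MASP1, a protease of the lectin route, was low, at 28.3 and 12.5 CPM in leptin overexpression and 9.84 and 26.2 CPM in WT. Within this step C1S, C1R, C4A, C2 and MASP1 were each lower in leptin overexpression replicate 2 than in replicate 1.

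At the C3 step 3 of 4 members, C3, CFB and CFD, had lower values at an unadjusted p under 0.05, against 5.32% of all tested genes, and CFP overlapped between the genotypes. C3 (ENSSSCG00000013551), on which every complement route converges, had 3513 and 1486 counts in leptin overexpression and 22840 and 8465 counts in WT. That was 229 and 111 CPM in leptin overexpression and 1036 and 505 CPM in WT. The groups did not overlap, and WT replicate 2 was more than 2-fold above the higher of the leptin overexpression libraries. Means were 170.2 ± 83.7 CPM in leptin overexpression and 771 ± 376 CPM in WT (SD, n = 2 each), with a log2 fold change of -2.18 (SE 0.57, edgeR adjusted p = 0.266, DESeq2 adjusted p = 0.0021). Leaving out WT replicate 1, the library with the highest C3, gave a log2 fold change of -1.58, and leaving out WT replicate 2 gave -2.62. In bulk RNA, fewer cells of a type and less RNA per cell cannot be told apart, here or below.

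CFB (ENSSSCG00000024914), factor B, the protease that binds deposited C3 and drives the amplification loop, had 1.83 and 2.09 CPM in leptin overexpression and 17.8 and 5.91 CPM in WT. The leptin overexpression libraries were close together and the WT libraries 3-fold apart, both above them. The log2 fold change was -2.59 (SE 0.65, edgeR adjusted p = 0.255, DESeq2 adjusted p = 0.0161) and was -1.61 without WT replicate 1. CFB directly follows C2 in the RefSeq annotation. Counts were not whole in 4 libraries for CFB and in 3 for C2, so part of their reads was divided by estimation. Such counts occurred for 10 members, among them HP, C5AR1 and TFPI2 in all 4 libraries. CFD (ENSSSCG00000013418), factor D or adipsin, which cuts bound factor B and is abundant in fat, was at 19.0 and 9.94 CPM in leptin overexpression and 32.2 and 29.5 CPM in WT. Every leptin overexpression library lay below every WT library, and the WT libraries were close (log2 fold change -1.09, SE 0.43, edgeR adjusted p = 0.509, DESeq2 adjusted p = 0.375). CFP, properdin, which stabilises the loop and is made by leukocytes, was at 33.3 and 27.0 CPM in leptin overexpression and 31.8 and 33.3 CPM in WT (log2 fold change -0.11, SE 0.36, edgeR adjusted p = 0.925).

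**Figure D3:**
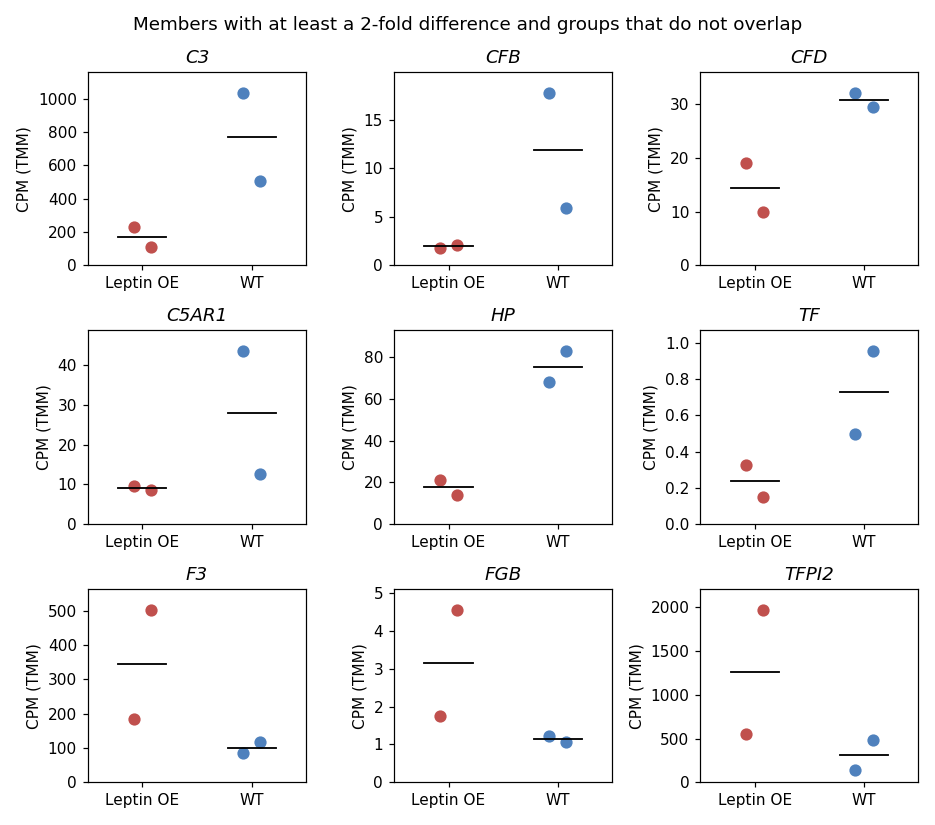
CPM of the 9 members with at least a 2-fold difference and groups that did not overlap, in leptin overexpression (red, left) and WT (blue, right) libraries, replicate 1 left of replicate 2; black lines are group means of 2 libraries. C3, CFB and C5AR1 spread widely within WT, and F3, FGB and TFPI2 spread widely within leptin overexpression, while the HP groups are far apart relative to their spread.

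The terminal pathway was represented by a single abundant gene. C7 (ENSSSCG00000016859), which anchors the pore to the membrane, was at 124 and 75.7 CPM in leptin overexpression and 180 and 191 CPM in WT (log2 fold change -0.89, SE 0.41, edgeR adjusted p = 0.55). Its WT libraries agreed closely and the leptin overexpression libraries were both below them. C5, the precursor of the C5a peptide, was at 1.31 and 1.27 CPM in leptin overexpression and 1.13 and 0.597 CPM in WT. C6, which binds C7 in the pore, had 2 and 0 counts in leptin overexpression and 2 and 0 in WT, and was not tested. C7 was therefore at 15.8 FPKM or more in every library, against at most 0.26 FPKM for C5 and 0.04 FPKM for C6.

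The regulators did not move in a common direction. CD59 (ENSSSCG00000024791), which blocks pore assembly on the cell's own membrane, was at 557 and 650 CPM in leptin overexpression and 240 and 442 CPM in WT (log2 fold change 0.82, SE 0.48, edgeR adjusted p = 0.6). Both leptin overexpression libraries were above both WT libraries, and the WT libraries differed almost 2-fold. CD55, which speeds the decay of the C3-cleaving enzymes, was at 59.9 and 94.9 CPM in leptin overexpression and 20.1 and 62.1 CPM in WT, and here WT replicate 2 lay above leptin overexpression replicate 1. CD46, a cofactor for the breakdown of C3b, was at 191 and 172 CPM in leptin overexpression and 152 and 210 CPM in WT (log2 fold change 0.0039, SE 0.40, edgeR adjusted p = 0.999). CFI, the protease that uses that cofactor, was at 15.3 and 43.8 CPM in leptin overexpression and 47.1 and 16.1 CPM in WT, so each genotype held a high and a low library.

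Among the soluble regulators, CLU was at 1973 and 863 CPM in leptin overexpression and 1241 and 1174 CPM in WT. Its leptin overexpression libraries enclosed both WT libraries (log2 fold change 0.23, SE 0.55, edgeR adjusted p = 0.892). SERPING1, C1 inhibitor, was at 352 and 172 CPM in leptin overexpression and 243 and 390 CPM in WT, and overlapped as well. VTN, vitronectin, which also restrains the terminal complex, was scarce, at 0.588 and 0.598 CPM in leptin overexpression and 1.18 and 1.19 CPM in WT, on 26 counts or fewer in each library.

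The receptors of the anaphylatoxins C3a and C5a differed from each other. C5AR1 (ENSSSCG00000029371), the C5a receptor of neutrophils, monocytes and macrophages, was at 9.53 and 8.59 CPM in leptin overexpression and 43.6 and 12.5 CPM in WT. The groups did not overlap, but WT replicate 1 alone was far from the other libraries (log2 fold change -1.63, SE 0.58, edgeR adjusted p = 0.44, DESeq2 adjusted p = 0.167). Leaving out WT replicate 1 gave a log2 fold change of -0.49. C3AR1 (a row of an assembled gene), the C3a receptor of myeloid cells, was at 34.8 and 54.2 CPM in leptin overexpression and 32.9 and 33.8 CPM in WT, with a log2 fold change of 0.42 (SE 0.38, edgeR adjusted p = 0.71) on the TMM scale and -0.033 on the FPKM scale.

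Leukocyte markers were measured beside these receptors. The macrophage and monocyte markers, of which 10 of 10 were found, summed to 454 and 382 CPM in leptin overexpression and 439 and 648 CPM in WT. Of these 10 markers, 3 had higher and 7 lower values in leptin overexpression. In each direction 1 had an unadjusted edgeR p under 0.05, against 4.04% higher and 5.32% lower of all tested genes. The neutrophil markers, of which 5 of 6 were found, summed to 7.51 and 6.65 CPM in leptin overexpression and 17.0 and 40.2 CPM in WT. Of these, 4 were tested and had lower values, 1 with no overlap and 1 at an unadjusted edgeR p under 0.05. Single markers of these lists were highest in WT replicate 1, as C5AR1 was, and others were not. CSF3R, the granulocyte colony-stimulating factor receptor of neutrophils, was at 0.522 and 0.0747 CPM in leptin overexpression and 14.4 and 1.01 CPM in WT (DESeq2 adjusted p = 0.00445, edgeR adjusted p = 0.366). CD68, a lysosomal protein of macrophages, was at 16.9 and 14.5 CPM in leptin overexpression and 54.4 and 31.2 CPM in WT, and CSF1R, the receptor of their growth factor, at 39.1 and 17.9 CPM in leptin overexpression and 63.0 and 44.1 CPM in WT. S100A12, a calcium-binding protein of neutrophils, was highest in WT replicate 2, at 34.5 CPM. The neutrophil sum was thus mostly CSF3R in WT replicate 1 and mostly S100A12 in WT replicate 2. C1QA, C1QB and C1QC of the macrophage list were also highest in WT replicate 2, and their groups overlapped. The choice of these markers was made with their values known. The macrophage markers named were all among the 7 with lower values in leptin overexpression. The 3 with higher values, 1 of them with no overlap between the groups, are not named. The part of these cells in the result for C5AR1 was not tested.

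The acute phase proteins split into haptoglobin, a few proteins at high ovarian levels and a remainder near the limit of detection. HP (ENSSSCG00000002749), haptoglobin, which binds free haemoglobin and is a major acute phase protein of pigs, had 325.26 and 185.95 estimated counts in leptin overexpression and 1499.85 and 1391.85 in WT. That was 21.2 and 13.9 CPM in leptin overexpression and 68.1 and 83.1 CPM in WT. Of all members HP had the smallest edgeR adjusted p, 0.198, with means of 17.6 ± 5.18 CPM in leptin overexpression and 75.6 ± 10.6 CPM in WT (SD, n = 2 each) and a log2 fold change of -2.10 (SE 0.39, DESeq2 adjusted p = 6.66e-04). The groups were apart by more than 3-fold at their nearest, and leaving out any single library gave log2 fold changes from -2.43 to -1.82.

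The FPKM values of HP were 6.05 and 2.34 in leptin overexpression and 42.6 and 39.4 in WT, a wider gap than in counts. FPKM and counts together imply the transcript length that the authors' estimation used. For HP it was 3246 and 4797 bases in leptin overexpression and 2132 and 2104 bases in WT, the largest spread of the 30 members with at least 0.5 FPKM in every library. For 25 of these 30 the implied length stayed within 1.1-fold over the libraries, and for 3 (HP, CFB and ITIH4) it varied by over 1.2-fold. For CFB it was 3287 and 3245 bases in leptin overexpression and 4504 and 4810 bases in WT. The implied lengths of HP and CFB thus differed between the genotypes, and the size of their FPKM difference depends on them.

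Of the other acute phase and transport proteins, A2M (ENSSSCG00000000660), alpha-2-macroglobulin, was at 1836 and 825 CPM in leptin overexpression and 460.4 and 1755 CPM in WT. It differed almost 4-fold within WT, and the groups overlapped (log2 fold change 0.26, SE 0.70, edgeR adjusted p = 0.909). ITIH4, known in pigs as the major acute phase protein pig-MAP, was at 110 and 48.5 CPM in leptin overexpression and 27.8 and 91.2 CPM in WT. SERPINF1, an inhibitor of vessel growth, was at 54.8 and 28.1 CPM in leptin overexpression and 20.8 and 39.6 CPM in WT. A2M, ITIH4 and SERPINF1 shared the same library order, with leptin overexpression replicate 1 highest and WT replicate 1 lowest.

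The classical plasma markers of inflammation were barely present. CRP, C-reactive protein, had 8 and 12 counts in leptin overexpression and 10 and 7 counts in WT. ORM1, orosomucoid, had 6 and 8 counts in leptin overexpression and 2 and 9 counts in WT, and LBP, which presents bacterial lipopolysaccharide, had 1 and 0 counts in leptin overexpression and 8 and 2 counts in WT. TF, transferrin, was at 0.326 and 0.149 CPM in leptin overexpression and 0.499 and 0.955 CPM in WT, on 16 counts or fewer (log2 fold change -1.56, SE 1.1, edgeR adjusted p = 0.642). SERPINA1, alpha-1-antitrypsin, and CP, ceruloplasmin, were detected mainly in WT replicate 1. SERPINA1 had 5 and 2 counts in leptin overexpression and 136.24 and 8 in WT, and CP 1 and 2 in leptin overexpression and 27.21 and 1 in WT.

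Markers of liver cells, the usual source of these proteins, were at low levels. Of 8 hepatocyte markers 7 were found, which summed to 6.85 and 7.54 CPM in leptin overexpression and 7.58 and 4.48 CPM in WT. APOB was at 0 in every library, and ALB, serum albumin, reached at most 0.590 CPM.

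Like C3, CFB and HP, the sums of 4 marker lists besides the neutrophil list were lower in both leptin overexpression libraries than in both WT libraries: oviduct epithelium, surface epithelium, smooth muscle with pericytes, and platelets. The sums of the theca and fibroblast lists were higher in both leptin overexpression libraries. Theca markers summed to 17413 and 24185 CPM in leptin overexpression and 7234 and 16921 CPM in WT. Fibroblast and stroma markers summed to 11983 and 7651 CPM in leptin overexpression and 7550 and 6780 CPM in WT. Single markers of both lists were split. Of 4 theca markers 2 were higher and 2 lower, with 0 at an unadjusted edgeR p under 0.05. STAR and LHCGR were on both the theca and the luteal list. Of 8 fibroblast markers 5 were higher and 3 lower, and the only 1 at an unadjusted edgeR p under 0.05 was lower. The sums of the remaining lists overlapped. Of all tested genes, 22.9% were lower and 22.2% higher with no overlap in CPM. The oviduct epithelium markers, all 6 found, summed to 0.718 and 3.44 CPM in leptin overexpression and 396 and 197 CPM in WT. The markers of surface epithelium and mesothelium, 6 of 9 found, summed to 31.1 and 87.6 CPM in leptin overexpression and 237 and 126 CPM in WT. FOXJ1 and SPAG6, of motile cilia, were at 0 in leptin overexpression replicate 1. All 6 oviduct genes and 5 of the 6 surface genes had an unadjusted edgeR p under 0.05. By edgeR's adjusted p 0 passed the threshold, and by that of DESeq2 3 of the oviduct and 4 of the surface genes did. The smooth muscle and pericyte markers, 7 of 7 found, summed to 999 and 1026 CPM in leptin overexpression and 1464 and 1616 CPM in WT. Of these 5 of 7 were lower with no overlap, and DESeq2 called MYH11 and DES, both contractile cell proteins (adjusted p = 0.00563 and 0.0288, edgeR adjusted p = 0.263 and 0.273). The platelet and megakaryocyte markers, 5 of 6 found, summed to 47.5 and 33.5 CPM in leptin overexpression and 52.6 and 50.2 CPM in WT. Single platelet markers did not share that direction. Of 3 tested, 1 was higher in leptin overexpression with no overlap, at an unadjusted edgeR p under 0.05 (log2 fold change 3.47). The other 2 were lower, with log2 fold changes down to -0.44 and 0 at an unadjusted p under 0.05. The part of these cell types in the values of C3, CFB and HP was not tested.

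**Figure D4:**
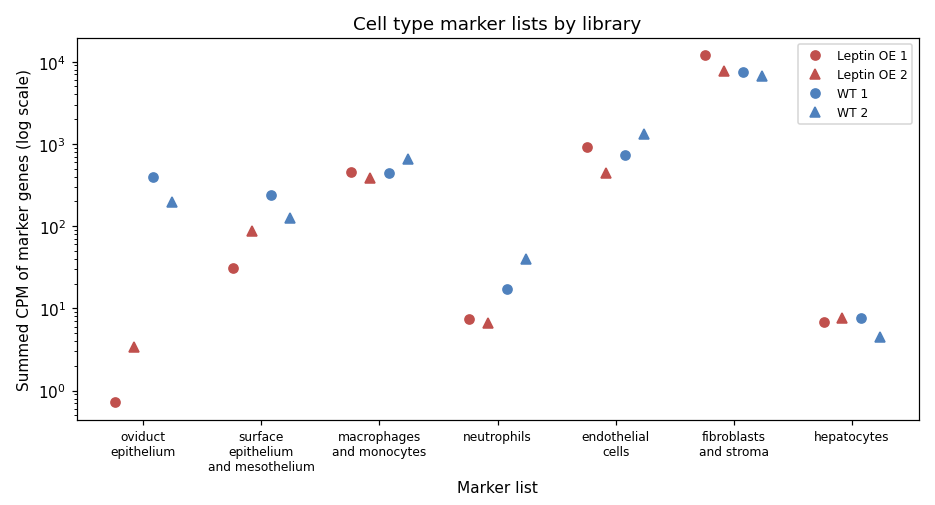
Summed CPM (log scale) of cell type marker lists in leptin overexpression (red) and WT (blue) libraries; circles are replicate 1 and triangles replicate 2. Both epithelial lists are lower in both leptin overexpression libraries (0.718 and 3.44 CPM for oviduct) than in both WT libraries, and hepatocyte markers sum to under 8 CPM in every library.

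In coagulation the gene with the largest difference among procoagulant factors was its trigger. F3 (ENSSSCG00000022447), tissue factor, was at 185 and 503 CPM in leptin overexpression and 84.2 and 119 CPM in WT. The groups did not overlap, and leptin overexpression replicate 2 was more than 2-fold above replicate 1. Means were 344 ± 225 CPM in leptin overexpression and 102 ± 24.5 CPM in WT (SD, n = 2 each), with a log2 fold change of 1.76 (SE 0.55, edgeR adjusted p = 0.36, DESeq2 adjusted p = 0.0319). Leaving out leptin overexpression replicate 2 gave a log2 fold change of 0.88, and leaving out replicate 1 gave 2.32.

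The remaining procoagulant genes were low. F2R, the main thrombin receptor, was at 11.3 and 4.41 CPM in leptin overexpression and 5.72 and 10.7 CPM in WT (log2 fold change -0.063, SE 0.59, edgeR adjusted p = 0.977). F13A1, which cross-links fibrin and is found in platelets and macrophages, was at 6.85 and 8.96 CPM in leptin overexpression and 20.0 and 6.03 CPM in WT, high in WT replicate 1 only. F5, the cofactor of factor X, was at 12.01 and 6.798 CPM in leptin overexpression and 6.17 and 3.94 CPM in WT, with groups that did not overlap and a log2 fold change of 0.89 (SE 0.54, edgeR adjusted p = 0.601). FGB, the fibrinogen beta chain, had 27 and 61 counts in leptin overexpression and 27 and 18 counts in WT, or 1.76 and 4.56 CPM against 1.22 and 1.07 CPM (log2 fold change 1.45, SE 0.80, edgeR adjusted p = 0.589). The log2 fold change of FGB was 0.63 without leptin overexpression replicate 2 and 2.00 without replicate 1. FGB stands next to FGA in the RefSeq annotation, and FGA and FGG had no reads. F10, the factor X precursor, had at most 6 counts in any library and was not tested.

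The anticoagulant side was led by TFPI2 (ENSSSCG00000015322), a Kunitz-type inhibitor of plasmin and of the tissue factor complex. It was at 547 and 1969 CPM in leptin overexpression and 143 and 485 CPM in WT. Leptin overexpression replicate 1 and WT replicate 2 were nearly equal, and both groups spread more than 3-fold. The log2 fold change was 2.00 (SE 0.79, edgeR adjusted p = 0.509, DESeq2 adjusted p = 0.0568), and 0.81 without leptin overexpression replicate 2, 1.34 without WT replicate 1 and 3.10 without WT replicate 2. In FPKM it was at 317 and 1000 (999.82 as deposited) in leptin overexpression and 120 and 304 in WT. PROS1, protein S, the cofactor of activated protein C, was at 268 and 344 CPM in leptin overexpression and 103 and 258 CPM in WT (log2 fold change 0.76, SE 0.51, edgeR adjusted p = 0.626). Leaving out WT replicate 1 gave PROS1 a log2 fold change of 0.22, and leaving out WT replicate 2 gave 1.54. TFPI, the main inhibitor of tissue factor, was at 4.64 and 6.95 CPM in leptin overexpression and 1.497 and 4.42 CPM in WT. TFPI was thus at 1.54 FPKM or less in every library, far below its paralogue TFPI2.

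TFPI2, TFPI and PROS1 had the same library order as CD59, with WT replicate 1 lowest, then WT replicate 2, leptin overexpression replicate 1 and leptin overexpression replicate 2. F3 did too. The endothelial genes of the protein C system were at low levels. THBD, thrombomodulin, was at 8.29 and 3.59 CPM in leptin overexpression and 7.03 and 11.2 CPM in WT, and PROCR, the protein C receptor, at 4.05 and 10.7 CPM in leptin overexpression and 7.94 and 8.95 CPM in WT. The endothelial markers, 8 of 8 found, summed to 906 and 438 CPM in leptin overexpression and 728 and 1328 CPM in WT, and were, like THBD, lowest in leptin overexpression replicate 2 and highest in WT replicate 2.

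The libraries of a genotype did not carry equal weight. Leptin overexpression replicate 2 held the lowest CPM for 15 of the 36 tested members, against 34.3% of all tested genes, and the highest for 10, against 35.7%. The 15 included C1R, C1S, C2, C3, C4A, C7, CFD, CFP, CLU and SERPING1, and the 10 included CD55, CD59, F3, FGB, PROS1, TFPI and TFPI2. WT replicate 1 held the lowest CPM for 12 members, against 28.3% of all tested genes, and the highest for 7 (C2, C3, C5AR1, CFB, CFD, CFI and F13A1), against 28.5%. WT replicate 2 held the lowest for 5, against 22.2%, and the highest for 10, against 22.7%. Fits with a library left out keep a single library of a genotype and take the spread from the other genotype. Such fits called HP without WT replicate 1, against 1.07% of all genes tested in that fit. They called C3, C5AR1, CFB, F3, HP, SERPINA1 and TFPI2 without WT replicate 2, against 4.61% of all genes tested. Without leptin overexpression replicate 1 or replicate 2 they called 0 members, against 0.00671% and 0% of all genes tested. In the fit without WT replicate 2, WT is replicate 1 alone. SERPINA1 had 136.24 counts in WT replicate 1 and 8 in WT replicate 2, and missed the filter with all 4 libraries. C5AR1 was also highest in WT replicate 1, and its log2 fold change was -0.49 without that library. The calls of these genes thus rest on WT replicate 1. Leaving out single libraries also moved log2 fold changes of other members by over 1.5 times. C4A was at -0.37 without leptin overexpression replicate 2, at -0.47 without WT replicate 2 and at -1.42 without leptin overexpression replicate 1. CFD was at -0.68 and C7 at -0.56 without leptin overexpression replicate 2, CD59 at 0.43 without WT replicate 1 and at 1.302 without WT replicate 2, and C3AR1 at 0.076 without leptin overexpression replicate 2.

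Other genes of the same systems gave 0 calls by edgeR. The counts that follow stand beside 9.36% of all tested genes at an unadjusted p under 0.05 and 2.18% called by DESeq2. Of 29 other complement genes 17 were tested, of which 6 had higher and 11 lower values, with 5 at an unadjusted p under 0.05. Their most abundant members were C1QBP, a mitochondrial C1q-binding protein, at 345 and 335 CPM in leptin overexpression and 183 and 492 CPM in WT, and C1QB, a C1q chain made by macrophages, at 101 and 83.1 CPM in leptin overexpression and 98.4 and 151 CPM in WT. DESeq2 called 3 of the 29 listed genes, COLEC12 higher and ITGB2 and FCN1 lower. FCN1 missed edgeR's filter and is not among the 17. The genes called by DESeq2 alone in this and the next lists are named after their values were seen. COLEC12, a scavenger receptor of the collectin family, was at 99.4 and 89.1 CPM in leptin overexpression and 12.2 and 21.2 CPM in WT (log2 fold change 2.50, edgeR adjusted p = 0.174). ITGB2, the integrin beta chain shared by leukocyte complement receptors, was at 11.9 and 6.20 CPM in leptin overexpression and 50.9 and 21.2 CPM in WT (log2 fold change -1.99, edgeR adjusted p = 0.279). FCN1, ficolin 1 of monocytes, had under 0.2 CPM in each leptin overexpression library and 8.44 and 0.597 CPM in WT, so WT replicate 1 alone was high. C1QB thus overlapped between the genotypes, as did C1R and C1S.

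Of 39 other coagulation and fibrinolysis genes 24 were tested, with 14 higher, 10 lower and 5 at an unadjusted p under 0.05. KNG1, kininogen, called lower by DESeq2, was at 2.87 and 0.299 CPM in leptin overexpression and 11.3 and 10.03 CPM in WT. ANXA2, a cell-surface receptor for plasminogen and its activator, was at 719 and 969 CPM in leptin overexpression and 698 and 627 CPM in WT. Of 24 other acute phase genes 10 were tested, with 3 higher, 7 lower and 4 at an unadjusted p under 0.05. The ferritin chains FTH1 and FTL were the most abundant, and both had log2 fold changes under 0.5 in size (0.31 and 0.16). DESeq2 called PTX3 higher and LCN2 lower. PTX3, a long pentraxin of the cumulus matrix, was at 639 and 1031 CPM in leptin overexpression and 28.0 and 134 CPM in WT (log2 fold change 3.36, edgeR adjusted p = 0.225). LCN2, the siderophore-binding lipocalin, was at 5.42 and 3.36 CPM in leptin overexpression and 35.6 and 33.8 CPM in WT (log2 fold change -2.98, edgeR adjusted p = 0.129).

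Of 15 genes that induce the acute phase response, such as interleukin-6, its receptor and STAT3, 13 were tested, with 6 higher, 7 lower and 2 at an unadjusted p under 0.05. CEBPB, a transcription factor of the response, was at 190 and 147 CPM in leptin overexpression and 127 and 257 CPM in WT. SOCS3, the feedback inhibitor that STAT3 induces, was at 479.5 and 131 CPM in leptin overexpression and 55.7 and 298 CPM in WT, with full overlap. The deposited KEGG annotation placed 34 of the 44 members in the complement and coagulation pathway. Of the 130 other rows with that annotation 33 were tested, with 16 higher, 17 lower and 7 at an unadjusted p under 0.05.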

How the data were processed

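The authors deposited 1 table with expected counts and FPKM per gene for 4 libraries. Per the file headers and the values, the deposited expected counts are estimated counts, not scaled to depth, and the FPKM values deposited by the authors are scaled to transcript length and to the total of the count column. The submitters' processing notes list, with no roles, RSEM, HISAT2, StringTie 1.3.1, Bowtie2 2.2.8, fastp 0.18.0, edgeR 3.32.0 and DESeq2. The genome build and the use of strand are not given in the sources used here. No coordinates are reported, and without strand, a gene cannot be separated from one that overlaps it. Columns named for controls were read as the WT samples of the same number.

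Here, expected counts were rounded. Genes were kept with edgeR's filterByExpr (13937 of 22309), scaled by TMM and tested by the quasi-likelihood method of edgeR 4.0.16 under R 4.3.3 (robust, genotype only, 2 residual degrees of freedom), with Benjamini-Hochberg adjustment over all tested genes and a threshold of 0.05. The method was tested on simulated data in which every gene had the same fixed dispersion. The spread seen between these libraries was not copied, so the simulation does not show how many real differences would be found here. Log2 fold changes give leptin overexpression minus WT, and their SE is the absolute change divided by the square root of F. Floors of 3 counts cover counting error only. Symbols came from the table, from a table of gene names or, through the NCBI gene identifier, from RefSeq (Sscrofa11.1). Members and lists were chosen with earlier results of these data known. Described with every library's value were members called by edgeR or DESeq2, with unadjusted p under 0.05, or with at least a 2-fold difference and no overlap, and the 2 tested members of each role with the highest mean FPKM; other members were added by role. Genes of the pathway lists were to be named if called by edgeR or among the 2 with the highest mean FPKM; those called by DESeq2 alone were added after their values were seen. A gene of the coagulation and fibrinolysis list that this rule names is not reported here. Alternatives replaced TMM by RLE or upper-quartile factors, the filter by none or by 1 CPM in 2 samples, the test by DESeq2 1.42.0 or by voom or trend fits of limma 3.58.1 (trend on log2 FPKM with 1 or 0.1 added), added the replicate number as a block, or left out a library.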

Additional observations from a re-analysis of the deposited data

How the results depend on the processing

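The number of calls depended on the test. The directions of C3, CFB, CFD, C5AR1, HP, F3 and TFPI2 held under every alternative that was run. These genes were picked for an unadjusted edgeR p under 0.05, and their groups did not overlap in CPM. Their signs could thus hardly turn with a library left out or in refits of the same counts, so this is no independent support. All tested genes past the threshold numbered 4 with the design used, 4 with RLE factors and with the filter of 1 CPM, 11 with upper-quartile factors, 252 with no filter, 323 with DESeq2, 1 with limma-voom, 464 and 487 with limma-trend on log2(FPKM + 1) and log2(FPKM + 0.1), and 0 to 681 with a library left out. Members past the threshold numbered 3 with no filter, 4 with DESeq2 and 4 with either limma-trend fit, and 0 to 7 with a library left out. Members with an unadjusted p under 0.05 numbered 11 with either limma-trend fit and 2 to 14 with a library left out. The background moved too. Over all 13937 tested genes, those with an unadjusted p under 0.05 numbered 1304 with the design used. They numbered 2035 and 2082 with the limma-trend fits, and their number also changed with a library left out. The changes in the member counts are thus not particular to the members. The median log2 fold change of the tested members was -0.38 and -0.42 with the limma-trend fits and -0.44 to 0.17 with a library left out. Upper-quartile factors moved the median of all genes to -0.11. Signs turned for C1S (-0.0091 with upper-quartile factors, -0.032 with limma-voom, -0.42 and -0.43 with limma-trend, -0.011 with the replicate number as a block), C3AR1 (-0.033 and -0.037 with limma-trend) and CLU (-0.30 with either). With a library left out, log2 fold changes ran from -0.79 to 0.67 for C1S, -0.42 to 1.51 for A2M, -0.47 to 0.72 for CLU and -0.89 to 0.47 for F2R. The cause of these changes was not tested. The replicate number as a block gave 23 calls over all genes and 0 among the members. Deviations of same-numbered libraries from their group means had r = -0.0995 across genes. With 2 libraries per group this is a single correlation, so it cannot show whether same-numbered libraries share a batch. The labels give them only a common number. FGA, FGG, C6, F10, LBP, ORM1, CP and SERPINA1 missed edgeR's filter: all but CP and SERPINA1 had under 10 counts in every library, and those had more in WT replicate 1 alone. DESeq2 gave adjusted p-values of 0.107 for SERPINA1, 0.731 for CP and 0.939 for ORM1.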
